A study of Mus musculus with 4 samples.

Results

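let-7b and let-7c are a pair of mature microRNAs of the let-7 family, entered in the count files as mmu-let-7b-5p and mmu-let-7c-5p. They were chosen by name, and made up 2 of the 1059 mature miRNAs listed and 2 of the 274 miRNAs with enough counts to be tested. Small RNAs were sequenced from the rostral-most telencephalic primordium of mouse embryos at E11.5, in 4 libraries. The 2 Rx-Dicer libraries came from RxCre-DicerF/F embryos, in which both Dicer alleles are floxed and Cre is driven by the Rx3 promoter in the early forebrain primordium. The 2 control libraries are labelled WT, and the tissue protocol names their embryos as DicerF/F, that is, the same floxed alleles without Cre. Rx3-Cre mice were kept on a CD1 background and floxed Dicer mice on C57BL/6. Cells that do not express Rx3-Cre, such as blood, vessel and mesenchymal cells, keep Dicer in both groups. How many embryos went into a library was not stated, so that p-values measure only the spread between these libraries, and fewer cells of a type cannot be told apart from less miRNA per cell. Dicer mRNA is not measured in these files.

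Dicer is the RNase III enzyme that cuts hairpin precursors into mature miRNAs of about the length of those shown here, and existing miRNAs then persist until they decay or are diluted by cell division. The let-7 miRNAs are heterochronic regulators: their mature forms accumulate as progenitors differentiate, and they repress mRNAs of growth and cell cycle genes through the seed at their 5′ end. In early embryonic cells the RNA-binding protein LIN28 holds back their maturation by binding the precursor's terminal loop, where GGAG is a known recognition motif. Mouse has 1 let-7b gene and 2 let-7c genes.

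Both sequences were found in RefSeq, and are shown with let-7a to place the bases in which the 3 miRNAs differ. Capitals mark the seed, bases 2 to 8 from the 5′ end.
let-7a-5p: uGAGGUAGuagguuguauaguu
let-7b-5p: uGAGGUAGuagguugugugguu
let-7c-5p: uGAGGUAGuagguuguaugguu
All 3 are 22 bases long and share the seed GAGGUAG. Counted from the 5′ end, let-7c and let-7b differ only by A17G, and let-7a and let-7c only by A19G. Of the files' mature miRNAs 895 were found in RefSeq by name, and 10 of these carry this seed, namely let-7a, b, c, d, e, f, g, i and k and miR-98-5p. let-7j, entered as a let-7 in the files, has the seed GAGGUAU. A single base thus separates reads of let-7b from those of let-7c, which matters for the less abundant of the pair.

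The hairpins show where the 2 miRNAs come from. Coordinates are those of GRCm38.p6, and capitals mark the mature 5p arm.
Mirlet7b: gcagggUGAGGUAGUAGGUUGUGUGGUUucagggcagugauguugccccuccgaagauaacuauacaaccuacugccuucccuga
Mirlet7c-2: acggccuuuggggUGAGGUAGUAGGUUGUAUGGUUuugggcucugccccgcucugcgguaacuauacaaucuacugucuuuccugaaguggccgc
Mirlet7c-1: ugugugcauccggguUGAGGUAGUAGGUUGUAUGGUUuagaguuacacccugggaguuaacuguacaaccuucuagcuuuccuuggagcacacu
Mirlet7b lies at chr15:85707319-85707403 on the plus strand, with mature let-7b at chr15:85707325-85707346. Mirlet7c-2 lies just upstream on the same strand, at chr15:85706603-85706697, with its mature let-7c at chr15:85706616-85706637 and 621 bases between the hairpins. Both fall in an exon of the long non-coding gene Lncppara in the 1 annotated transcript that spans them. The second let-7c gene, Mirlet7c-1, lies at chr16:77599657-77599750 on the plus strand, with mature let-7c at chr16:77599672-77599693. It sits 656 bases downstream of Mir99a, in an intron of Mir99ahg in each of the 4 annotated transcripts that span it, and 46522 bases upstream of Mir125b-2. Between the 5p and 3p arms, Mirlet7c-1 holds GGAG in its 23 bases, whereas the 32 bases of Mirlet7b and the 26 bases of Mirlet7c-2 do not. The 4 letters, searched on the hairpin strand only, occur between the arms of 8 of the 11 let-7 and miR-98 hairpins with both arms annotated, and of 52 of all 644 such mouse hairpins (8.07%). This is a description of the letters and not of LIN28 binding.

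In control tissue, let-7c was among the most abundant miRNAs and let-7b was not. The files gave 29038 counts of let-7c in control 1 and 12424 in control 2, the 9th and 19th most counted miRNAs of 534 and 485 with any count. They gave 1081 and 434 counts of let-7b, which ranked 69th and 96th. As shares of all miRNA counts, let-7c took 2.24% and 1.10%, and let-7b 0.0832% and 0.0383% (95% Wilson intervals 2.21% to 2.26%, 1.08% to 1.12%, 0.0784% to 0.0883% and 0.0349% to 0.0421%). The control libraries thus held far more let-7c than let-7b, and control 1 held more of both than control 2.

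In Rx-Dicer tissue both fell. let-7c had 4263 counts in Rx-Dicer 1 and 2666 in Rx-Dicer 2, at ranks 32 and 38, or 0.655% and 0.516% of all counts. let-7b had 66 and 59 counts, at ranks 164 and 157 of the 481 and 461 miRNAs with a count, or 0.0101% and 0.0114% (95% Wilson intervals 0.00797% to 0.0129% and 0.00886% to 0.0147%). The exact 95% Poisson intervals of the let-7b counts were 51.0 to 84.0 and 44.9 to 76.1 in the mutants, and 1018 to 1147 and 394 to 477 in the controls. These intervals cover counting error only, since reads carry no molecular identifiers. The counts of let-7b in mutants were low yet not 0, and lay apart from those of controls by far more than counting error.

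Libraries differed in depth, with 516517 to 651031 miRNA counts in mutants and 1133553 to 1299067 in controls. Counts were therefore expressed as scaled CPM, that is, counts per 1e6 of a library's tested-miRNA total after correcting that total by a TMM factor, which assumes that most miRNAs do not differ. On this scale let-7b stood at 86.8 and 100.7 CPM in Rx-Dicer 1 and 2, and at 899 and 471 CPM in control 1 and 2. The means were 93.8 ± 9.80 CPM in mutants and 685 ± 303 CPM in controls (SD, n = 2 each). let-7c stood at 5608 and 4549 CPM in the mutants and at 24151 and 13480 CPM in the controls, with means of 5079 ± 748 and 18816 ± 7545 CPM (SD, n = 2 each). For both miRNAs the groups did not overlap, and the spread was wider between the controls than between the mutants.

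**Figure D1:**
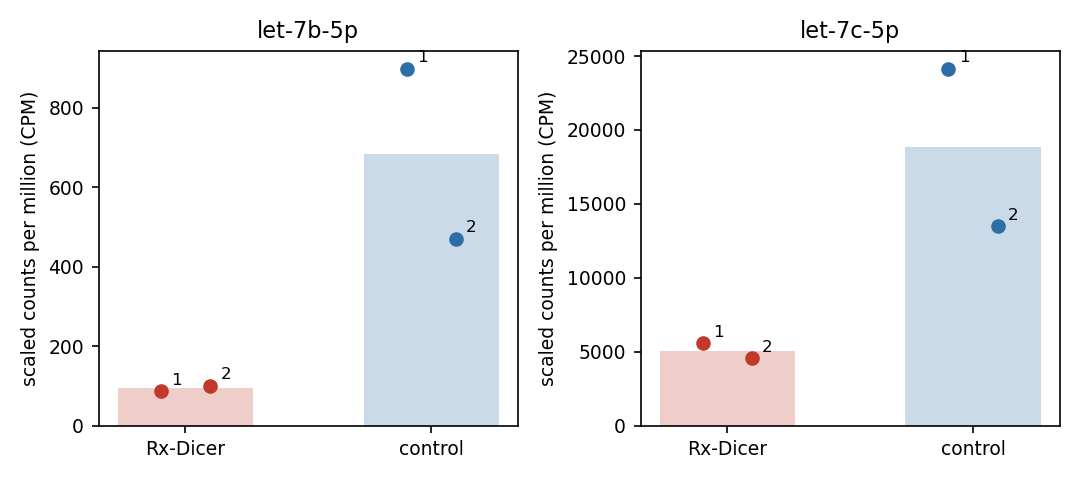
Scaled CPM of let-7b-5p and let-7c-5p. Points are libraries, numbered by replicate, and bars are group means of 2 libraries, with separate linear axes from 0. Both mutant libraries lie below both control libraries in each panel, and control 1 lies above control 2.

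let-7b was 7.32-fold lower in mutants, a log2 fold change of -2.87 (SE 0.37, edgeR quasi-likelihood test with Benjamini-Hochberg adjustment over 274 miRNAs, adjusted p = 0.0188). let-7c was 3.70-fold lower, a log2 fold change of -1.89 (SE 0.34, adjusted p = 0.0472). These were the largest and the next largest decreases among the 274 miRNAs, whose median log2 fold change was 0.04. The place of let-7c rested on control 1, since without that library its -1.37 was smaller in size than the changes of let-7i-5p (-1.63), miR-98-5p (-1.56) and let-7j (-1.50). In the same fit 7 of the 274 miRNAs, or 2.55%, were called lower at an adjusted p under 0.05, and none was called higher. Without the adjustment 23 were lower and 3 higher, and DESeq2 also called none higher. Non-overlap of the groups is less selective, since both mutant libraries lay below both controls for 67 of the 274, or 24.5%.

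**Figure D2:**
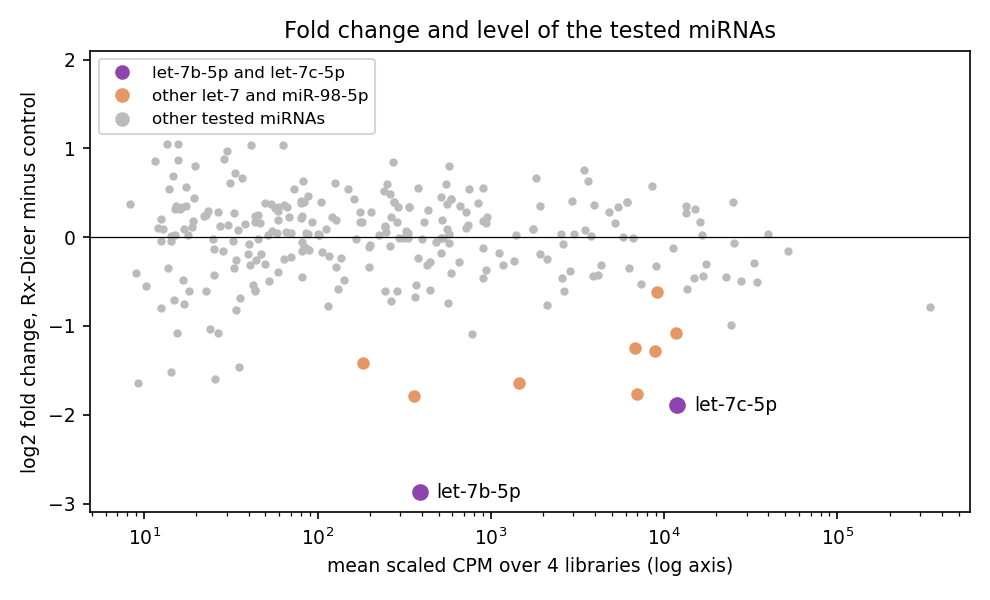
Log2 fold change (Rx-Dicer minus control) of each of the 274 tested miRNAs against its mean scaled CPM over the 4 libraries on a log axis. let-7b-5p at -2.87 and let-7c-5p at -1.89 are the lowest points, and miR-98-5p and let-7i-5p, among the other family members in orange, come next. Sparsely counted miRNAs at the left spread widely.

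The call of let-7c was less secure than that of let-7b. It was lost with upper-quartile scaling (adjusted p = 0.0719), where that of let-7b was kept (adjusted p = 0.0311). Without 1 library the log2 fold changes ran from -3.26 to -2.29 for let-7b and from -2.25 to -1.37 for let-7c. Refits of the test there lost the call of let-7c each time, but did not follow their precision for let-7b. Its SE was 0.23 and 0.19 without control 1 and 2, where its call was lost. The SE was 0.54 and 0.56 without Rx-Dicer 1 and 2, where its call was kept. These refits leave 1 library alone in a group and do not show on which libraries either call rested. Scaling by total counts alone, with no TMM factors, ended both calls, with log2 fold changes of -2.50 (adjusted p = 0.133) and -1.51 (adjusted p = 0.188), but also moved the median of all tested miRNAs to 0.44. Relative to that median, let-7b stood at -2.91 as reported and at -2.94 with total counts, and let-7c at -1.92 and -1.95. A change of scaling shifts all miRNAs nearly alike, so these relative values are close by construction and do not bear on the lost calls. The sign was negative for both under every setting run.

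**Figure D3:**
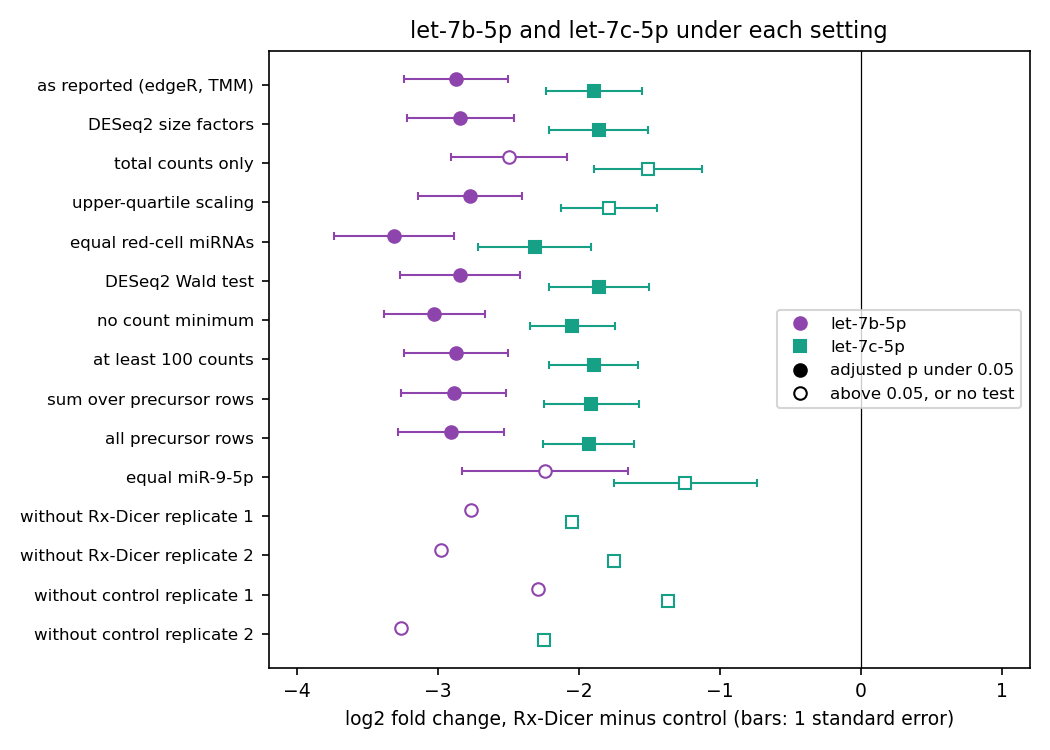
Log2 fold changes of let-7b-5p (circles) and let-7c-5p (squares) as reported and under other settings, with bars of 1 standard error where the fit gave one. The fit with a replicate block and the refits of the test on 3 libraries are not shown. Points without 1 library are from fits without a test. Filled symbols had an adjusted p under 0.05 and open symbols did not or were not tested. All lie below 0, from -3.31 to -2.24 for let-7b-5p and from -2.31 to -1.25 for let-7c-5p.

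Control 1 weighed on the size of both decreases. It held 1.91 times as much let-7b and 1.79 times as much let-7c as control 2 on the CPM scale, the 10th and 19th highest of the 274 such ratios, and 9.49% and 16.1% of tested miRNAs had a wider gap in either direction. Without control 1 the log2 fold change was -2.29 for let-7b and -1.37 for let-7c. The mutants were closer, with 0.862 times as much let-7b and 1.23 times as much let-7c in Rx-Dicer 1 as in Rx-Dicer 2.

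The ratio of let-7b to let-7c was below both control values in each mutant, a difference that 2 libraries per group cannot bring past a threshold. Counts of let-7b were 3.72% and 3.49% of those of let-7c in control 1 and 2, and 1.55% and 2.21% in Rx-Dicer 1 and 2. Such a ratio is taken within a library and does not depend on scaling. The difference in mean log2 ratio, Rx-Dicer minus control, was -0.96, and the groups did not overlap (two-sided exact permutation test, p = 0.333, the smallest that 2 against 2 libraries allow). Leaving out single libraries gave -1.22 to -0.70.

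The 2 miRNAs differ at base 17 alone, and how many mismatches the authors' counting allowed is not given in the sources used here. If 1 fixed share of let-7c reads had been counted as let-7b in every library, the lowest ratio, in Rx-Dicer 1, would bound it at 1.97% of let-7c counts, taking the upper Poisson limit of its 66 let-7b counts. That share would be 572 counts in control 1 and 245 in control 2, and would leave 509 and 189 counts of let-7b there. The let-7b of Rx-Dicer 1 itself could then be anything down to 0 by construction. At the observed 1.55% of Rx-Dicer 1, a smaller share than that bound, Rx-Dicer 2 would keep 18 of its 59 let-7b counts. At the bound itself it would keep fewer. A share that differed between libraries is not covered by this bound.

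The 2 let-7c genes could not be told apart. The files list let-7c on 2 precursor rows, with 4263 and 4233 counts in Rx-Dicer 1, 2666 and 2646 in Rx-Dicer 2, 29038 and 28909 in control 1, and 12424 and 12347 in control 2. The rows differed by 0.444% to 0.750% of the first, so nearly every read was entered on both, and one row was used. The mature RNA is the same from both genes, and the 3p arms that would separate them (let-7c-1-3p and let-7c-2-3p), like let-7b-3p, had no row in the files.

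miR-99a-5p and miR-125b-5p, miRNAs with other seeds whose genes flank Mirlet7c-1, served as neighbours for comparison. miR-99a-5p stood at 17079 and 15684 CPM in mutants and 28794 and 36174 CPM in controls, and its log2 fold change of -0.99 (SE 0.25) missed the threshold (adjusted p = 0.124), which it passed in 4 alternatives, such as DESeq2's Wald test (adjusted p = 0.00670). miR-125b-5p, which also has a second gene elsewhere, stood at 24818 and 21109 CPM against 28965 and 35779 CPM, with a log2 fold change of -0.50 (SE 0.25, adjusted p = 0.526). Unlike let-7b and let-7c, both were lower in control 1 than in control 2, at 0.796 and 0.810 times its level.

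The ratios of let-7b and let-7c to these neighbours within a library were lower in the mutant libraries, with the same limit on the test. Counts of let-7c were 32.8% and 29.0% of those of miR-99a in Rx-Dicer 1 and 2, and 83.9% and 37.3% in control 1 and 2. The difference in mean log2 ratio was -0.86 (two-sided exact permutation test, p = 0.333), but -0.27 without control 1 and -1.44 without control 2, so that its size rested on which control was used. Counts of let-7b were 0.508% and 0.642% of those of miR-99a in mutants and 3.12% and 1.30% in controls, a difference of -1.82 in log2, which was -1.19 without control 1 and -2.45 without control 2. Relative to miR-125b, let-7c was at 22.6% and 21.6% in mutants and 83.4% and 37.7% in controls, a difference of -1.34, or -0.77 without control 1. None of the 8 ratios computed overlapped between groups, each with the same smallest p, which stays 0.333 after Benjamini-Hochberg adjustment over the 8. All 8 have let-7b or let-7c, the 2 largest decreases, as the first miRNA, so they are not 8 separate observations. Only the ratios of let-7b to let-7c and of let-7c to miR-99a were planned, and the rest of the 8 were added after the data were seen. Ratios of other miRNAs were not computed. Of the single miRNAs, 67 of the 274 tested (24.5%) had both mutants below both controls.

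**Figure D4:**
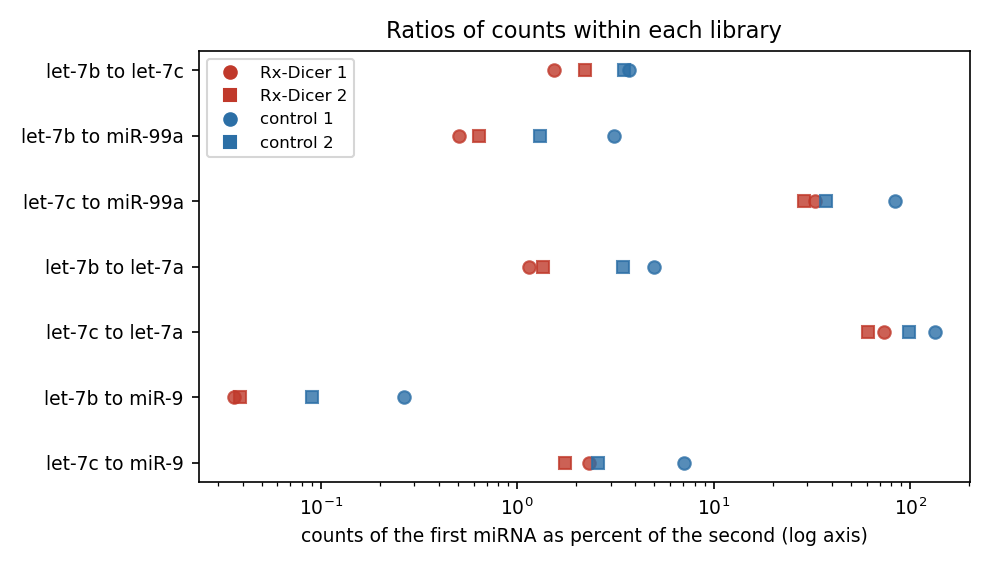
Counts of let-7b-5p or let-7c-5p as percent of another miRNA in the same library, on a log axis. Red symbols are Rx-Dicer and blue symbols control libraries, with circles for replicate 1 and squares for replicate 2. In each row both mutants lie left of both controls, closest for let-7c against miR-99a (32.8% in Rx-Dicer 1 and 37.3% in control 2) and against miR-9 (2.33% and 2.57%).

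Within the let-7 family the pair moved to lower positions. In controls let-7c had the highest mean level of the 10 tested miRNAs named let-7 or miR-98, followed by let-7a at 15861 ± 3167 CPM, from which it could not be separated since their libraries overlapped. In mutants let-7c came after let-7a, let-7e and let-7f, and overlapped let-7f. In controls let-7b was above miR-98-5p, which it overlapped, and let-7j. It was last in mutants, with miR-98-5p apart from it and let-7j at 99.3 ± 21.3 CPM overlapping it. Sequence bias in ligation to adapters can differ between miRNAs, so levels are compared across miRNAs only as counted.

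As a share of all counts named let-7, let-7c took 25.7% and 19.4% in control 1 and 2 and 17.4% and 13.5% in Rx-Dicer 1 and 2. The mean difference was -7.12 percentage points (two-sided exact permutation test, p = 0.333), and -3.95 without control 1. let-7b took 0.958% and 0.677% in controls and 0.269% and 0.299% in mutants, a difference of -0.53 percentage points (exact permutation test, p = 0.333). The groups did not overlap for either share. Set against let-7a, which differs from let-7c at 1 base, let-7c counts were 133% and 99.0% in controls and 74.0% and 61.1% in mutants, and let-7b counts 4.97% and 3.46% against 1.15% and 1.35%.

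Of the 8 other family members tested, 5 were called lower in mutants and none higher, and all 8 had both mutants below both controls. Together with let-7b and let-7c these 5 made up the 7 miRNAs called, or 2.55% of the 274 tested. Over all 274, both mutants lay below both controls for 67, or 24.5%. The 5 called were miR-98-5p (log2 fold change -1.79), let-7i-5p (-1.77), let-7d-5p (-1.64), let-7f-5p (-1.28) and let-7g-5p (-1.24). By the same edgeR test with DESeq2 size factors, let-7d-5p, let-7f-5p and let-7g-5p lost their calls (adjusted p = 0.0609 each). Upper-quartile scaling also ended these calls (adjusted p = 0.0719 each), while miR-98-5p and let-7i-5p kept theirs under both. With total counts only, all 5 lost their calls. let-7j (-1.42, adjusted p = 0.0718), let-7a-5p (-1.08, adjusted p = 0.105) and let-7e-5p (-0.62, adjusted p = 0.497) missed the threshold, although let-7j passed in 6 alternatives and let-7a-5p in 5, and let-7e-5p turned to 0.047 where libraries were set to equal miR-9-5p. The median over these 8 was -1.35, beside 0.04 over all tested miRNAs. let-7k had 0, 0, 1 and 2 counts and was not tested. The close relatives let-7b, let-7c and let-7a had log2 fold changes of -2.87, -1.89 and -1.08. The 3 ratios between them gave p = 0.333 each by the exact permutation test, the smallest that 2 against 2 libraries allow. That test therefore could not decide whether the 3 changes differ.

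**Figure D5:**
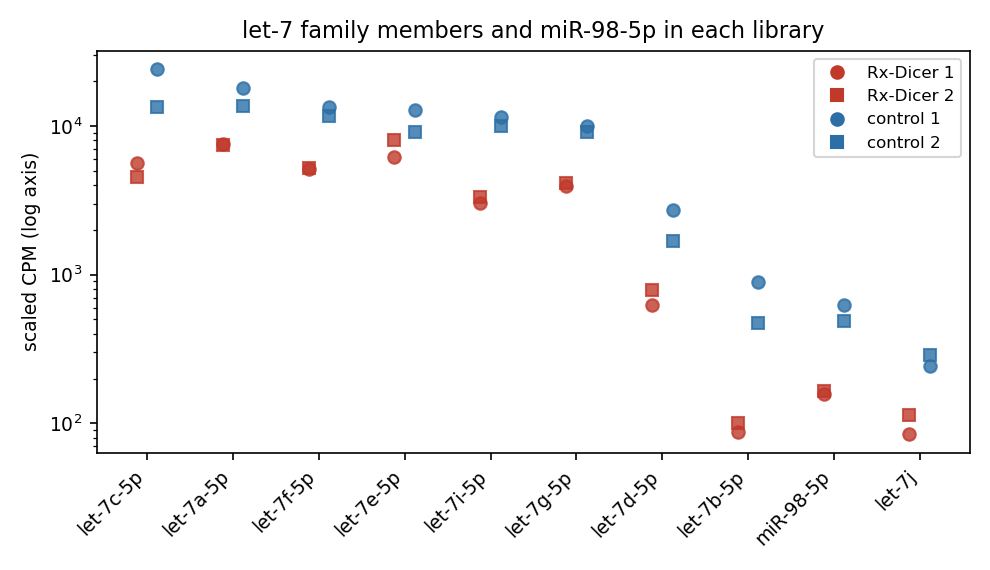
Scaled CPM on a log axis of the 10 tested let-7 and miR-98 miRNAs in each library, ordered by mean level in controls. Red is Rx-Dicer and blue control, with circles for replicate 1 and squares for replicate 2. By group mean, let-7c-5p drops from first in controls to a position below let-7a-5p, let-7e-5p and let-7f-5p in mutants, and let-7b-5p is last there. Libraries of let-7c-5p overlap those of let-7a-5p in controls and of let-7f-5p in mutants, and those of let-7b-5p overlap let-7j in mutants. On this scale every member is lower in both mutants, let-7e-5p by the least (-0.62, turning to 0.047 where libraries are set to equal miR-9-5p).

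Likeness of pattern was measured as the root mean square difference of log2 scaled CPM over the 4 libraries, each miRNA centred on its own mean, with 0 for the same pattern. By this measure let-7c was nearest to let-7b (0.515), followed by miR-98-5p (0.552), let-7i-5p (0.579) and let-7d-5p (0.604). The nearest outside the family was miR-3078-5p at 0.691. let-7c in turn was nearest to miR-98-5p (0.219), let-7d-5p (0.261) and let-7i-5p (0.274), and let-7b came only 13th in its order. Outside the family miR-3078-5p (0.321), miR-592-5p (0.405), miR-5113 (0.425), miR-188-5p (0.425) and miR-139-5p (0.457) were nearest to let-7c. For let-7b they were miR-3078-5p, then miR-188-5p (0.798), miR-592-5p (0.814), miR-5113 (0.896) and miR-383-5p (0.916). None of these 6 was called, and all but miR-139-5p had at most 64 counts in any library, so their patterns carry wide counting error. With only 4 libraries in 2 groups, a like pattern mostly says that a miRNA was lower in mutants by a like amount.

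Markers of the cell types that the tissue could hold were read in the same libraries, and none of them passed the test. The tissue was neural by its most counted miRNA: miR-9-5p, a miRNA of neural progenitors, stood at 241150 and 259356 CPM in mutants and 340117 and 524463 CPM in controls (log2 fold change -0.79, adjusted p = 0.344). The summed neural list, with 3 of its 6 miRNAs in the files, was 243590 and 262299 CPM against 344626 and 527099 CPM. Nearly all of that sum was miR-9-5p. Of the other listed miRNAs, miR-124-5p was lower with no overlap (195 and 205 CPM in mutants, 359 and 297 CPM in controls). miR-92b-5p overlapped between groups (2246 and 2739 CPM in mutants, 4150 and 2338 CPM in controls). let-7b counts were 0.0360% and 0.0388% of those of miR-9 in mutants and 0.264% and 0.0898% in controls, and let-7c counts 2.33% and 1.75% against 7.10% and 2.57%, so both were also lower per miR-9 count. The differences in log2 were -2.04 and -1.08, or -1.26 and -0.35 without control 1 and -2.82 and -1.81 without control 2. Where libraries were set to equal miR-9-5p, a scaling added after the data were seen, the log2 fold changes were -2.24 for let-7b (adjusted p = 0.181) and -1.25 for let-7c (adjusted p = 0.206), with a median of 0.77 over all tested miRNAs.

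Red cell miRNAs, from cells that keep Dicer, summed to 14123 and 15889 CPM in mutants and 10834 and 11856 CPM in controls. Of the 4 red cell miRNAs listed in the files, 3 were higher with no overlap, of which miR-486a-5p and miR-486b-5p hold identical counts. Over all 274 tested miRNAs, 49 (17.9%) were higher in this way. Scaling that set red cell miRNAs equal gave log2 fold changes of -3.31 for let-7b (adjusted p = 0.0206) and -2.31 for let-7c (adjusted p = 0.0378). Mesenchymal and vessel wall miRNAs, with 6 of 9 in the files and 2 higher with no overlap, summed to 16201 and 15971 CPM in mutants, 6611 in control 1 and 15837 in control 2. Control 1, the library with the most let-7b and let-7c, thus had the least of these. The log2 fold changes without control 1 were the -2.29 for let-7b and -1.37 for let-7c given above.

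The remaining lists overlapped between groups in their sums. Of the white blood cell miRNAs 2 were higher and 1 lower with no overlap, and of the eye miRNAs 1 was higher and 1 lower. Among these, miR-223-5p and miR-211-5p, both higher, had too few counts to be tested. Over all 274 tested miRNAs, 17.9% were higher and 24.5% lower in this way. Summed CPM ran from 244 to 431 for the 1 of 2 endothelial miRNAs in the files, from 88.2 to 139 for 3 of 5 white blood cell miRNAs, from 201 to 809 for 7 surface epithelial miRNAs, of which 3 were at 0 in all libraries, and from 1425 to 14167 for 5 eye miRNAs. The eye sum was lowest in Rx-Dicer 1 and highest in Rx-Dicer 2. No miRNA of any of these lists was called. The part of cell type makeup in the levels of let-7b and let-7c was not tested.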

How the data were processed

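Small RNA libraries (NEBNext small RNA kit, single-end reads) from 2 Rx-Dicer and 2 control samples were counted by the authors with miRDeep2 against mm10 and miRBase, and deposited as raw counts per precursor and mature miRNA, 1211 rows per library, without normalization. Versions and mismatch settings of miRDeep2 are not given in the sources used here. For each of the 1059 mature names the row with the highest total was kept. miRNAs had to reach 10 counts in 2 or more libraries, and the 274 that did were scaled by TMM and tested by genotype alone with edgeR 4.0.16 (quasi-likelihood, R 4.3.3) and Benjamini-Hochberg adjustment, threshold 0.05. The test was first tested on simulated data. DESeq2 1.42.0, other scalings, count minimums, row choices, a replicate block and fits without 1 library were alternatives. Ratios and shares were compared with a two-sided exact permutation test over libraries. The libraries of a group were not duplicates, since their counts differed by a chi-square of 57.6 (mutants) and 255 (controls) per degree of freedom. Sequences and hairpin positions are from RefSeq (GRCm38.p6), host genes from GENCODE on the same assembly. miRNAs named were the pair, their other arms and neighbours, the let-7 and miR-98 miRNAs, marker lists, and for each of the pair the 5 other miRNAs nearest in pattern. The pair and all lists were chosen with earlier results of these data known. The mRNA libraries of the study were not used here.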

Additional observations from a re-analysis of the deposited data

How the results depend on the processing

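Both decreases kept their sign under each of the 19 alternatives run. Of the 11 on all 4 libraries, let-7b passed the threshold in 8 and let-7c in 7. let-7b and let-7c missed it with total counts only (-2.50 and -1.51) and with equal miR-9-5p, added after the data were seen (-2.24 and -1.25), and let-7c with upper-quartile scaling (-1.79). Leaving out single libraries gave -3.26 to -2.29 for let-7b and -2.25 to -1.37 for let-7c. Refits of the test on 3 libraries, also added afterwards, assume that a lone library varies like the other group. By edgeR let-7c passed in none (-2.05 and -1.75 without Rx-Dicer 1 and 2), and let-7b did not pass without either control. These tests do not show on which libraries the calls rested, since the SE of let-7b was smaller without a control than without a mutant. They called 1 and 6 miRNAs lower without Rx-Dicer 1 and 2, and 0 without either control, where 18 and 28 were lower unadjusted. The replicate numbers did not pair the libraries (correlation of deviations 0.085 over 274 miRNAs). With a replicate block, the log2 fold changes were -2.80 and -1.84 (both adjusted p = 0.280) and 0 miRNAs were called lower, 20 at an unadjusted threshold.

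The count of miRNAs called lower, 7 as reported, was 4 with DESeq2 size factors, 3 with upper-quartile scaling, 0 with total counts only (10 unadjusted), 0 with equal miR-9-5p (4 unadjusted), 11 each with the DESeq2 Wald test, all precursor rows and libraries set to equal red-cell miRNAs, 14 with no count minimum, 10 with at least 100 counts and 8 with summed precursor rows. None was called higher under any. Of the other let-7 miRNAs, miR-98, miR-99a and miR-125b, 2 values changed sign, let-7e-5p to 0.047 and miR-125b-5p to 0.26, both with equal miR-9-5p. The 8 ratios, 6 of them added afterwards, and both family shares kept their direction without each library in turn. Calls were gained in 4 alternatives for miR-99a-5p, 5 for let-7a-5p and 6 for let-7j. Over the other let-7 miRNAs, miR-98, miR-99a and miR-125b, 15 of 150 values gained a call and 21 lost one. The cause of the lost calls was not tested. With 2 libraries per group, the parts of depth and of spread between libraries in the precision were not tested either. let-7b in mutants had 59 and 66 counts.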
